A study of Homo sapiens with 12 samples.

Results

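The genes described here are 10 subunits of the Polycomb repressive complexes, read as the rows named EZH2, EZH1, EED, SUZ12, JARID2, BMI1, RING1, RNF2, CBX2 and CBX7 among 23621 gene rows measured by RNA sequencing. The cells were KURAMOCHI (Ku) and COV362 (Cov), established human ovarian cancer lines, untransduced, grown with 10% fetal bovine serum in RPMI for Ku and in DMEM for Cov. Each line was treated for 6 hr with DMSO, the vehicle, or with THZ1 at 50 nM or 250 nM, with 2 replicates a condition and 12 libraries in all. THZ1 is a covalent inhibitor of the transcriptional kinases CDK7, CDK12 and CDK13, and the comparison asks what short exposure to it does to the transcript levels of these genes. Each line is a single established culture, so its libraries describe that line and not ovarian cancer at large.

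Polycomb proteins keep developmental genes silent by modifying the histones around them. Polycomb repressive complex 2 (PRC2) writes methylation of histone H3 at lysine 27 through EZH2 or its paralogue EZH1, which need the scaffold proteins EED and SUZ12, while JARID2 is an accessory subunit that helps bring the complex to chromatin. Polycomb repressive complex 1 (PRC1) ubiquitinates histone H2A through RING1 or RNF2, the enzymes also called RING1A and RING1B, together with a PCGF protein such as BMI1, and in its canonical form carries a CBX protein such as CBX2 or CBX7 that binds the methylated H3. EZH2 is the form of proliferating cells and is often abundant in tumours, whereas EZH1 is the form that resting cells retain.

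Values are FPKM, a read number scaled for transcript length and library size, which the authors rescaled to ERCC spike-in RNAs added to RNA normalized by cell count, so a value follows transcript per cell and not a share of the library. FPKM is per length, and levels of different genes are compared on it. All 10 genes were active, meaning above 1 FPKM in at least 1 of the 12 libraries, as were 14251 genes in all. The tables of the lines were normalized separately, so levels in Ku and Cov stand side by side and no difference between lines was tested. Most transcripts fell: the median active gene stood at 70.0% of its DMSO level in Ku at 50 nM and 36.3% at 250 nM, and at 49.1% and 33.0% in Cov. Between replicates the median absolute difference over active genes was 0.09 to 0.171 on the log2 scale, with Pearson correlations across genes of 0.968 to 0.983. The most frequent value in a library, held by 4901 to 5429 rows, lay between 0.0783 and 0.119 FPKM. The tables hold no counts and the sequencing depth is unknown. Epithelial markers summed to between 1815 and 5009 FPKM over the libraries, and 10 markers of blood, vessel, stroma and liver cells to between 6.55 and 18.0 FPKM. Of those 10 markers 4 were active, CD68, VWF, CDH5 and COL1A1, and all 4 in Ku and all but VWF in Cov were above 1 FPKM in both DMSO libraries, with CDH5 the highest at 8.67 FPKM. The other 6 markers, PTPRC, CD3E, PECAM1, DCN, LUM and ALB were below 1 FPKM in every library, and among the epithelial ones CDH1 and MUC16 were below 1 FPKM in Ku and WT1 was below 1 FPKM in Cov.

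The promoters of 6 of the genes are printed, chosen by the values of their transcripts. RING1 was the called gene of that comparison for which the RefSeq promoter table (GRCh38.p14) holds an entry, EZH2, JARID2 and BMI1 stood closest to their DMSO level there, SUZ12 stayed below DMSO under each of the 3 scalings of the libraries tried, and EED was the lowest of the 10 in Cov at 250 nM. The table holds entries for 9 of the 10 genes, all but CBX2. Each sequence is the 250 bases before the transcription start, 5′ to 3′ on the strand of the gene, placed on GRCh37 by an exact match. For EZH2 the last 30 bases were left out because other EZH2 transcripts carry them as 5′ UTR. Capitals mark matches, on either strand, to motifs that were searched by their exact letters. The GC box was searched as GGGCGG. The box bound by the factor NF-Y was searched as CCAAT. For the TATA box the letters were TATAAA. For the E-box, which MYC and other factors bind, they were CACGTG. Forms of the E2F site were TTTCCCGC and, as an alternative spelling, TTTGGCGC. Neighbouring GC boxes can share letters, as in EZH2 and BMI1.
RING1, chr6:33176027-33176276, plus strand: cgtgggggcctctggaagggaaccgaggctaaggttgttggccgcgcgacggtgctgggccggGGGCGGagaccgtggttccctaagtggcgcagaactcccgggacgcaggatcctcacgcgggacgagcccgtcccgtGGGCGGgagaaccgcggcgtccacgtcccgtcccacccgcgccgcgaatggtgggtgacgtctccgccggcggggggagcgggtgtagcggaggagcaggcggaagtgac
EZH2, chr7:148581414-148581633, minus strand: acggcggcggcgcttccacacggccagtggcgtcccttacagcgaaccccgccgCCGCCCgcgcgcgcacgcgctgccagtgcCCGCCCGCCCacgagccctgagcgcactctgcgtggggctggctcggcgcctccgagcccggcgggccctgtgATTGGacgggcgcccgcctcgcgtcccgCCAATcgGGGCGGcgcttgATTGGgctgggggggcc
JARID2, chr6:15246050-15246299, plus strand: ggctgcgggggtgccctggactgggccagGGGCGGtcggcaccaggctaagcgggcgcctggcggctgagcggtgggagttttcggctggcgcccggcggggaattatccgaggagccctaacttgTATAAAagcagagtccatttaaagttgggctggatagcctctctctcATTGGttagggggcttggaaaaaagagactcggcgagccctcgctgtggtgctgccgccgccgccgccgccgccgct
BMI1, chr10:22609778-22610027, plus strand: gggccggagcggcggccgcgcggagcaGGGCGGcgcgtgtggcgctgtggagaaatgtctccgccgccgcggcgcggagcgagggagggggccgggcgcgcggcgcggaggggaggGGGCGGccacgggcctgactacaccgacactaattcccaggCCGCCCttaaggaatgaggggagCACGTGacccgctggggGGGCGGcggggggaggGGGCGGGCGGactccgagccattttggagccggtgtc
SUZ12, chr17:30263776-30264025, plus strand: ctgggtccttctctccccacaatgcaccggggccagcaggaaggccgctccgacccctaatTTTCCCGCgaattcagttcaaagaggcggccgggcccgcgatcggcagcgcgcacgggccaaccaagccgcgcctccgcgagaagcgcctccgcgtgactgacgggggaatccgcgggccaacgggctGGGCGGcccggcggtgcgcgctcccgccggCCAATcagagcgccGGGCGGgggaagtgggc
EED, chr11:85955545-85955794, plus strand: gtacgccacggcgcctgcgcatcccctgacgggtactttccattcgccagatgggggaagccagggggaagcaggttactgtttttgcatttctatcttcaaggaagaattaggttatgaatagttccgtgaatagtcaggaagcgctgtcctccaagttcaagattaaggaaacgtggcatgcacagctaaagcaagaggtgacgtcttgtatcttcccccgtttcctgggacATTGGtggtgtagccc

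These windows differ in base composition, from 51.2% G and C for EED to 78.6% for EZH2. The GC box occurs in 8 of the 9 member windows, all but that of EED, against 42.6% of 35116 promoters of the same length. Those promoters were not limited to active genes, and their median was 58% G and C. All printed windows but that of EED lay above this median, and the shares were not compared at like base composition. CCAAT is found in 5 of them (EZH2, EED, SUZ12, JARID2 and CBX7) against 32.0% of all promoters. The JARID2 window alone of the 9 holds TATAAA, 124 bases before the start, against 10.7% of all promoters. CACGTG is in the BMI1 window 70 bases before the start, against 6.34%, and TTTCCCGC in the SUZ12 window 189 bases before it, against 1.39%. None of the 9 holds TTTGGCGC, which 0.55% of all promoters do. The windows of RING1, EZH2 and BMI1 all carry GC boxes, and a relation of motifs to transcript values was not tested. The BMI1 window lies within introns of the COMMD3-BMI1 readthrough gene, and the windows of RING1 and EED overlap exons of lncRNAs in the GENCODE annotation. A match of letters is a description of the window and not evidence of binding.

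In vehicle, EZH2 was the most abundant of the 10 transcripts in both lines and CBX7 the least. In Ku the order by mean FPKM was EZH2 (42.2), EED (38.2), RING1 (37.3), RNF2 (23.1), CBX2 (16.7), SUZ12 (13.4), BMI1 (10.7), JARID2 (9.78), EZH1 (6.97) and CBX7 (3.56). The libraries of EZH2 and EED overlapped, as did those of EED and RING1 and those of BMI1 and JARID2, so these neighbours were not separated by their spread. In Cov the order was EZH2 (135), EED (71.7), RING1 (49.3), SUZ12 (24.5), RNF2 (14.2), BMI1 (10.2), JARID2 (8.38), CBX2 (4.23), EZH1 (3.86) and CBX7 (2.29), and only BMI1 and JARID2 overlapped. After 250 nM THZ1, EZH2 was still the highest of the 10 and CBX2 had become the lowest in both lines, although its libraries overlapped those of CBX7 in Ku. RING1 moved from the third place to the second in both lines at this dose.

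**Figure D1:**
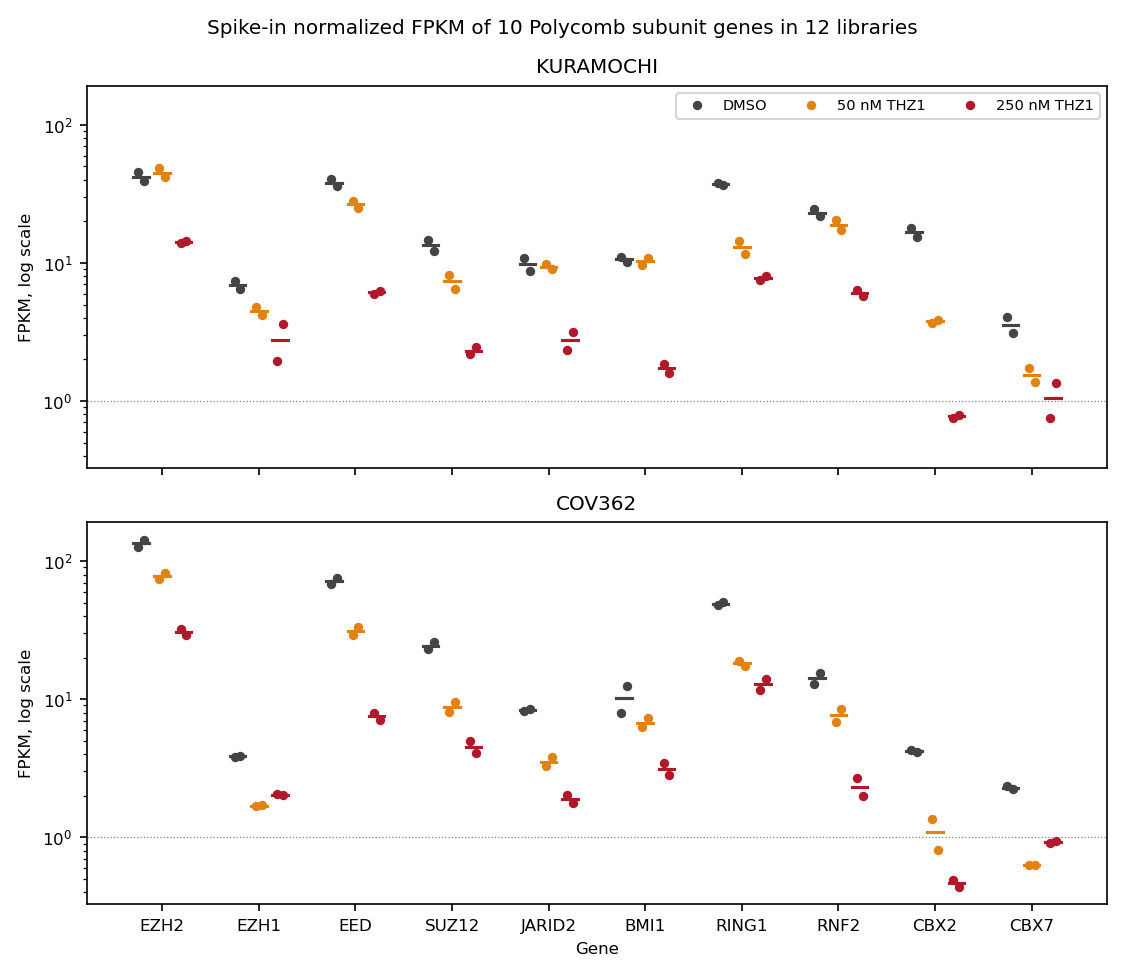
FPKM (spike-in normalized, log axis) of the 10 genes in KURAMOCHI (upper) and COV362 (lower), with a point for each library, a short line for the mean of 2 libraries and the dotted line at 1 FPKM. EZH2 is the highest gene in every condition, EZH2, JARID2 and BMI1 at 50 nM overlap DMSO in KURAMOCHI, and EZH1 and CBX7 in COV362 are lower at 50 nM than at 250 nM.

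EZH2, the catalytic subunit of PRC2 in dividing cells, lies on chr7:148504349-148581413 on the minus strand of GRCh37. In Ku cells EZH2 measured 45.4 and 38.9 FPKM in DMSO, 48.4 and 41.7 at 50 nM, and 13.9 and 14.3 at 250 nM. The low-dose libraries overlapped DMSO and the high-dose libraries lay below both. In Cov cells EZH2 measured 127 and 143 FPKM in DMSO, 74.6 and 82.1 at 50 nM, and 32.1 and 29.2 at 250 nM, with no overlap between the groups. On the log2(FPKM + 1) scale the change in Ku was 0.09 ± 0.11 (SE) at 50 nM, with an adjusted p of 0.499 in limma after Benjamini-Hochberg adjustment, and -1.51 ± 0.11 at 250 nM (adjusted p = 3.91e-05). The Cov change was -0.78 ± 0.10 at 50 nM (adjusted p = 0.000246) and -2.10 ± 0.10 at 250 nM (adjusted p = 1.39e-06). Calls of a lower gene needed both a log2 fold change below -0.5 and an adjusted p under 0.001, and EZH2 was so called in 3 of the 4 comparisons with DMSO. Of all active genes 94.7% had a lower log2 fold change than EZH2 in Ku at 50 nM. The call in Cov at 50 nM was lost without DMSO replicate 2 (adjusted p = 0.00213) and without 50 nM replicate 1 (adjusted p = 0.0011).

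EZH1, the weaker paralogue of EZH2, lies on chr17:40852293-40897067 on the minus strand. Its Ku libraries read 7.42 and 6.51 FPKM in DMSO, 4.81 and 4.17 at 50 nM, and 1.96 and 3.60 at 250 nM. The high-dose replicates differed by a larger ratio than those of any other member in Ku, and both lay below the 50 nM libraries. In Cov cells EZH1 read 3.83 and 3.89 FPKM in DMSO, 1.67 and 1.71 at 50 nM, and 2.06 and 2.01 at 250 nM, so the higher dose gave the higher value. EZH1 was not called in Ku at either dose, with -0.54 ± 0.23 (adjusted p = 0.0909) and -1.11 ± 0.23 (adjusted p = 0.00388). In Cov it was called lower at 50 nM by -0.85 ± 0.09 and at 250 nM by -0.68 ± 0.09, with adjusted p of 8.25e-05 and 0.000143. Relative to the other genes its loss was small at the high dose in Cov, where 83.5% of active genes had a lower log2 fold change. That call was lost without either DMSO library (adjusted p = 0.00143 and 0.00176 without replicates 1 and 2) and without either 250 nM library (0.00123 and 0.00144), and with no minimum FPKM (0.00141), and the call at 50 nM without DMSO replicate 2 (0.00119).

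EED binds methylated H3 and is required for PRC2 activity. It lies on chr11:85912254-85989855 on the plus strand, a span that begins with a longer transcript upstream of the start at 85955795 whose promoter is printed above. In Ku cells EED read 40.4 and 36.0 FPKM in DMSO, 28.1 and 24.97 at 50 nM, and 5.92 and 6.32 at 250 nM. In Cov cells EED read 68.5 and 74.9 FPKM in DMSO, 29.1 and 33.6 at 50 nM, and 7.999 and 7.01 at 250 nM. No group overlapped another in either line, and 250 nM left 16.0% of the DMSO mean in Ku and 10.5% in Cov. The log2 fold change at 250 nM was -2.46 ± 0.10 in Ku (adjusted p = 9.28e-06) and -3.10 ± 0.11 in Cov (adjusted p = 8.22e-07). The Cov value was the lowest among the 10 genes, and 2.67% of active genes fell further. At 50 nM EED was called lower in Cov (-1.17 ± 0.11, adjusted p = 6.37e-05) and not in Ku (-0.51 ± 0.10, adjusted p = 0.00783).

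SUZ12, the scaffold that holds PRC2 together, lies on chr17:30264026-30328057 on the plus strand. In Ku cells SUZ12 read 14.6 and 12.3 FPKM in DMSO, 8.22 and 6.504 at 50 nM, and 2.18 and 2.45 at 250 nM. In Cov cells SUZ12 read 23.0 and 26.0 FPKM in DMSO, 8.09 and 9.59 at 50 nM, and 4.98 and 4.07 at 250 nM. Its groups did not overlap in either line. SUZ12 was called lower at 250 nM in Ku (-2.12 ± 0.16, adjusted p = 4.34e-05) and at both doses in Cov (-1.37 ± 0.13 and -2.21 ± 0.13, adjusted p = 6.81e-05 and 3.12e-06). Its Ku change at 50 nM was -0.79 ± 0.16 and did not pass (adjusted p = 0.00764). The Cov call at 50 nM was lost without DMSO replicate 2 (adjusted p = 0.00101). SUZ12 has a partial copy, the SUZ12P1 pseudogene, whose own row read 11.9 and 8.39 FPKM in Ku DMSO and 10.2 and 13.9 in Cov DMSO. SUZ12P1 was not called in any comparison. Reads shared between SUZ12 and this copy could have been split by the counting, so the level of SUZ12 is uncertain by an unknown amount.

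JARID2, which helps PRC2 find its targets and lacks active demethylase function, lies on chr6:15246300-15522273 on the plus strand and spans 275974 bases, the longest of the 10 genes. In Ku cells JARID2 read 10.9 and 8.69 FPKM in DMSO, 9.76 and 9.04 at 50 nM, and 2.35 and 3.14 at 250 nM. In Cov cells JARID2 read 8.23 and 8.53 FPKM in DMSO, 3.26 and 3.78 at 50 nM, and 2.03 and 1.76 at 250 nM. The low dose thus overlapped the vehicle in Ku and lay clear below it in Cov. JARID2 changed by -0.05 ± 0.17 in Ku at 50 nM (adjusted p = 0.831) and by -1.53 ± 0.17 at 250 nM (adjusted p = 0.000204). In Cov it was called lower at 50 nM (-1.06 ± 0.11, adjusted p = 8.87e-05) and at 250 nM (-1.70 ± 0.11, adjusted p = 4.12e-06). The Ku call at 250 nM was lost without DMSO replicate 1 (adjusted p = 0.00129) and without 250 nM replicate 1 (0.0017), and the Cov call at 50 nM without DMSO replicate 2 (0.00133).

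Turning to PRC1, BMI1 is the PCGF protein that stimulates the ubiquitin ligase and is known to cooperate with MYC in mouse lymphoma. It lies on chr10:22610028-22620413 on the plus strand. In Ku cells BMI1 read 11.1 and 10.2 FPKM in DMSO, 9.68 and 10.9 at 50 nM, and 1.87 and 1.59 at 250 nM. In Cov cells BMI1 read 7.97 and 12.5 FPKM in DMSO, 6.26 and 7.28 at 50 nM, and 3.45 and 2.81 at 250 nM. The Ku libraries showed DMSO and 50 nM together and 250 nM far below them, while the DMSO libraries of Cov differed by a larger ratio than those of any other member in that line. BMI1 changed by -0.05 ± 0.13 in Ku at 50 nM (adjusted p = 0.772) and by -2.10 ± 0.13 at 250 nM (adjusted p = 2.41e-05). In Cov the change was -0.50 ± 0.20 at 50 nM, which was not called (adjusted p = 0.0441) and ranged from -0.80 without DMSO replicate 1 to -0.21 without DMSO replicate 2, and -1.42 ± 0.20 at 250 nM, which was (adjusted p = 0.000275) but not without 250 nM replicate 2 (adjusted p = 0.00122).

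The BMI1 locus is also covered by COMMD3-BMI1, a readthrough row that joins BMI1 to its upstream neighbour COMMD3, so reads on BMI1 exons cannot be assigned with certainty. COMMD3-BMI1 read 17.6 and 16.0 FPKM in Ku DMSO, 8.66 and 5.38 at 50 nM, and 5.26 and 5.20 at 250 nM. In Cov cells COMMD3-BMI1 read 13.8 and 10.3 FPKM, 4.60 and 6.05, and 2.53 and 2.84. The readthrough row was therefore above BMI1 in Ku DMSO and below it at 50 nM. With BMI1 and COMMD3-BMI1 summed, a setting chosen after the values were seen, the Ku change at 50 nM was -0.64 ± 0.10 (adjusted p = 0.00341) in place of -0.05. The summed value in Cov at 50 nM was -0.84 ± 0.11 and passed (adjusted p = 0.000323). At 250 nM the sum gave -1.84 ± 0.10 in Ku and -1.77 ± 0.11 in Cov, both called, so the flat BMI1 value at 50 nM in Ku holds only for the BMI1 row taken alone.

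RING1, a catalytic subunit of PRC1, lies on chr6:33176277-33180499 on the plus strand and at 4223 bases is the shortest of the 10 genes. In Ku cells RING1 read 38.1 and 36.5 FPKM in DMSO, 14.4 and 11.6 at 50 nM, and 7.59 and 8.07 at 250 nM. In Cov cells RING1 read 48.1 and 50.4 FPKM in DMSO, 19.0 and 17.4 at 50 nM, and 11.7 and 14.1 at 250 nM. Most of the loss was present at the low dose, which left 34.8% of the DMSO mean in Ku and 37.0% in Cov. RING1 was called lower in all 4 comparisons, by -1.46 ± 0.12 and -2.12 ± 0.12 in Ku at 50 nM and 250 nM (adjusted p = 0.000445 and 1.75e-05) and by -1.39 ± 0.11 and -1.86 ± 0.11 in Cov (adjusted p = 3.57e-05 and 2.90e-06). In Ku at 50 nM, 5.05% of active genes had a lower log2 fold change. That call did not survive the removal of any of the 6 Ku libraries (adjusted p between 0.00178 and 0.00366), nor a fit of the DMSO and 50 nM libraries alone (adjusted p = 0.00157). It was also lost with no minimum FPKM (0.00258), at equal medians (0.00302) and by median of ratios (0.00138). HSD17B8, the neighbouring gene, was not called in any comparison.

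RNF2, the paralogue of RING1 that does most of the H2A ubiquitination in many cells, lies on chr1:185014658-185071735 on the plus strand. In Ku cells RNF2 read 24.5 and 21.8 FPKM in DMSO, 20.5 and 17.5 at 50 nM, and 6.37 and 5.80 at 250 nM. In Cov cells RNF2 read 12.9 and 15.5 FPKM in DMSO, 6.81 and 8.44 at 50 nM, and 2.67 and 1.98 at 250 nM. The groups did not overlap, but in Ku the step from DMSO to 50 nM was small. RNF2 was not called at 50 nM in Ku (-0.27 ± 0.12, adjusted p = 0.0955) or in Cov (-0.82 ± 0.16, adjusted p = 0.00169), the latter passing without 50 nM replicate 2 (adjusted p = 0.000558). At 250 nM it was called lower in Ku (-1.77 ± 0.12, adjusted p = 3.05e-05) and in Cov (-2.19 ± 0.16, adjusted p = 6.88e-06).

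CBX2, a chromodomain protein that both reads methylated H3 and compacts chromatin, lies on chr17:77751947-77761782 on the plus strand. In Ku cells CBX2 read 17.9 and 15.4 FPKM in DMSO, 3.69 and 3.88 at 50 nM, and 0.753 and 0.792 at 250 nM. In Cov cells CBX2 read 4.32 and 4.15 FPKM in DMSO, 1.36 and 0.808 at 50 nM, and 0.491 and 0.438 at 250 nM. At 50 nM 22.7% of the DMSO mean was left in Ku, the least of the 10 genes, and 25.6% in Cov, where the CBX2 libraries lay on either side of 1 FPKM and RING1 and SUZ12 had lower log2 fold changes. At 250 nM 4.64% was left in Ku and 11.0% in Cov, still above the most frequent value of those libraries. CBX2 was called lower in all 4 comparisons, by -1.88 ± 0.13 (adjusted p = 0.000348) and -3.31 ± 0.13 (8.43e-06) in Ku and by -1.34 ± 0.13 (7.42e-05) and -1.84 ± 0.13 (6.91e-06) in Cov. In Ku, 2.13% of active genes had a lower log2 fold change at 50 nM, and likewise 2.13% at 250 nM. Since 1 was added before the log, these values understate the loss of a gene as low as CBX2 in Cov. As for RING1, the Ku call at 50 nM was lost without any of the 6 Ku libraries (adjusted p between 0.00122 and 0.00328), and also with only the 2 groups fitted (0.00141), with no minimum FPKM (0.0021) and at equal medians (0.00119).

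CBX7, the other chromodomain protein followed here and the least abundant of the 10 genes in DMSO, lies on chr22:39516172-39548685 on the minus strand. In Ku cells CBX7 read 4.03 and 3.10 FPKM in DMSO, 1.72 and 1.38 at 50 nM, and 0.759 and 1.36 at 250 nM. In Cov cells CBX7 read 2.33 and 2.25 FPKM in DMSO, 0.626 and 0.629 at 50 nM, and 0.902 and 0.942 at 250 nM. Like EZH1, CBX7 had widely spaced high-dose replicates in Ku and stood higher at 250 nM than at 50 nM in Cov. It was not called in Ku (-0.83 ± 0.19, adjusted p = 0.0113, and -1.16 ± 0.19, adjusted p = 0.0012). In Cov it was called lower at 50 nM (-1.02 ± 0.07, adjusted p = 2.85e-05) and at 250 nM (-0.78 ± 0.07, adjusted p = 2.90e-05). The added 1 understates these falls as well, and with 0.1 added instead they were -1.72 and -1.23.

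**Figure D2:**
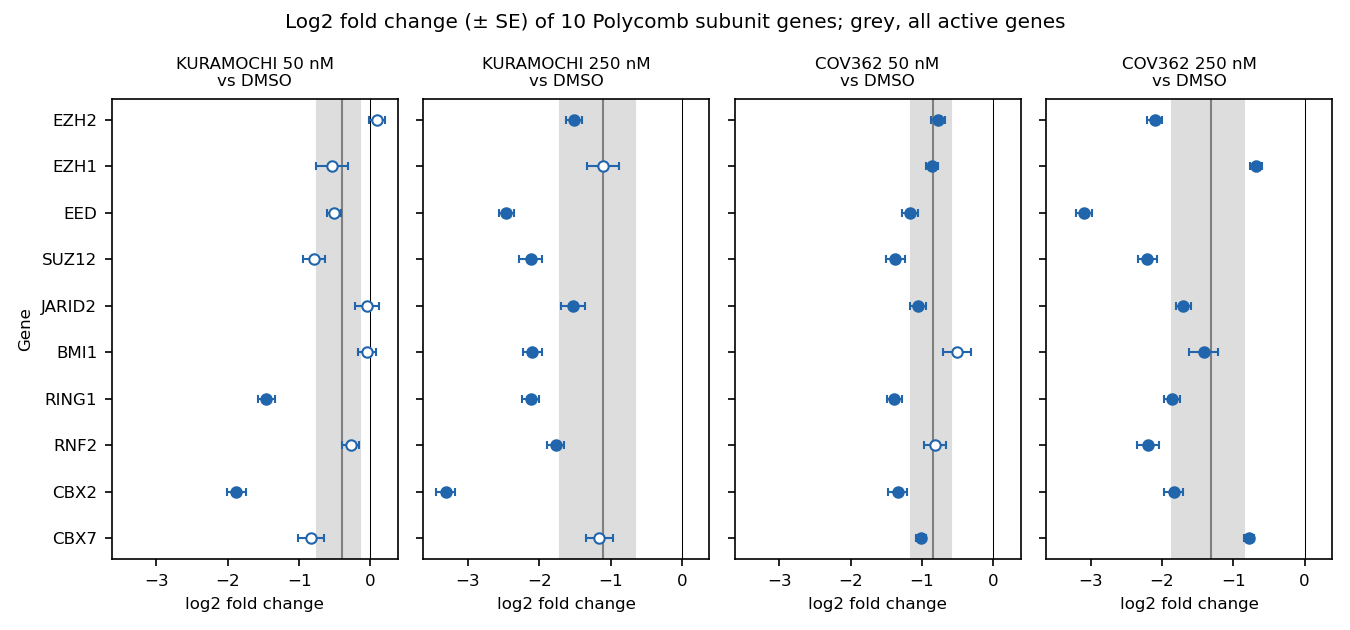
Log2 fold change of log2(FPKM + 1) against DMSO (points, with SE bars) for the 10 genes in the 4 comparisons, filled where called lower and open where not. The grey line and band are the median and the quartiles of 14251 active genes. At 50 nM in KURAMOCHI only CBX2 (-1.88) and RING1 (-1.46) are filled, and EED at 250 nM in COV362 is the lowest point of that panel (-3.10).

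The calls are set here beside the share of all active genes called. In Ku at 50 nM 2 of the 10 were called lower (CBX2 and RING1), and 11.3% of active genes were. At 250 nM in Ku 8 of the 10 were called lower, all but EZH1 and CBX7, against 68.6% of active genes. In Cov 8 of the 10 were called at 50 nM, all but BMI1 and RNF2, against 70.5%, and 10 of the 10 at 250 nM against 84%. With the libraries at equal medians 0, 2, 0 and 1 of the 10 were called lower in these comparisons, and by median of ratios 1, 4, 0 and 2. The same 2 genes were lower in both lines at 50 nM, where 10.4% of active genes were, and 8 were at 250 nM, where 64.6% were. None of the 10 was called higher in any comparison by limma, and 0 were higher at an unadjusted p under 0.05, where 208, 26, 57 and 44 of all active genes were, while 0.0842%, 0.0491%, 0.0772% and 0.105% of active genes were called higher in Ku at 50 nM and 250 nM and in Cov at 50 nM and 250 nM. The smallest p an exact permutation test (two-sided) allows for 2 libraries against 2 is 0.33, so the calls rest on the spread that limma shares among genes. Without Cov DMSO replicate 2, the members called at 50 nM in that line numbered 4 in place of 8, and all active genes called lower numbered 4314 in place of 10042. In Ku at 50 nM, leaving out any of the 6 Ku libraries left 0 members called and between 6 and 131 active genes in place of 1607.

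Separation of the libraries was counted as well. Both 50 nM libraries lay below both DMSO libraries for 7 of the 10 genes in Ku, all but EZH2, JARID2 and BMI1, against 75.8% of active genes, and for 10 of 10 in Cov against 95.7%. Both 250 nM libraries lay below both DMSO libraries for 10 of 10 in Ku (95.9% of active genes) and in Cov (95.6%). From 50 nM to 250 nM all 10 fell without overlap in Ku, where 87.7% of active genes did, and 0 rose, where 1.26% did. In Cov 8 of the 10 fell from 50 nM to 250 nM, against 75.6%, and EZH1 and CBX7 were the 2 that stood higher at 250 nM in both libraries, as 4.76% of active genes did.

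At 250 nM most of the subunits fell by more than the median gene, 9 of 10 in Ku and 8 of 10 in Cov on the spike-in scale. The median log2 fold change of the 10 was -0.52 in Ku at 50 nM and -1.93 at 250 nM, against -0.40 and -1.11 over all active genes. In Cov it was -1.04 and -1.85, against -0.85 and -1.31. The number of the 10 below the median of all active genes was 6 and 9 in Ku and 7 and 8 in Cov. Measured from that median, EED lay at -1.35 log2 units in Ku and -1.79 in Cov at 250 nM, and CBX2 at -2.20 and -0.53. EZH1 lay 0.0006 above the median in Ku at 250 nM, and in Cov EZH1 and CBX7 lay 0.63 and 0.53 above it. These distances depend on the 1 added before the log for genes of low level. With 0.1 added instead, Cov at 250 nM gave -2.94 for CBX2, -0.89 for EZH1 and -1.23 for CBX7, against a median of -1.55. Genes are not replicates, and these 10 were chosen with earlier results of these data known, so the medians are given as a description.

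Because the whole transcriptome fell, the direction given for a subunit depends on the spike-in scale. Bringing all libraries of a line to 1 shared median FPKM (equal medians) moved the median log2 fold change of all active genes from -0.40, -1.11, -0.85 and -1.31 to 0.10, 0.29, 0.12 and 0.31, and a median-of-ratios scaling moved it to 0.02, -0.0009, 0.0020 and 0.01. Under these scalings the median of the 10 genes was 0.12, -0.10, -0.0016 and -0.06, and -0.01, -0.59, -0.17 and -0.47. CBX2 stayed below 0 under all 3 scalings in the 4 comparisons, with -1.20, -1.91, -0.46 and -0.64 at equal medians. SUZ12 did so too, with -0.14, -0.47, -0.23 and -0.33. RING1 was below 0 under the 3 scalings in 3 comparisons and reached 0.13 in Cov at 250 nM with equal medians. EED held its sign at 250 nM, with -0.62 in Ku and -1.13 in Cov, and not at 50 nM, where it was 0.17 and 0.03. EZH1 was above 0 at equal medians in all 4 comparisons, with 0.06, 0.49, 0.02 and 0.84, and was called higher by that scaling in Cov at 250 nM. Its 2 values at 50 nM were smaller than their SE (0.20 in Ku and 0.07 in Cov). They also lay below the 0.10 and 0.12 of all active genes, and were -0.06 and -0.11 by median of ratios. EZH2 at 50 nM read 0.78 in Ku and 0.43 in Cov at equal medians and was not called there.

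**Figure D3:**
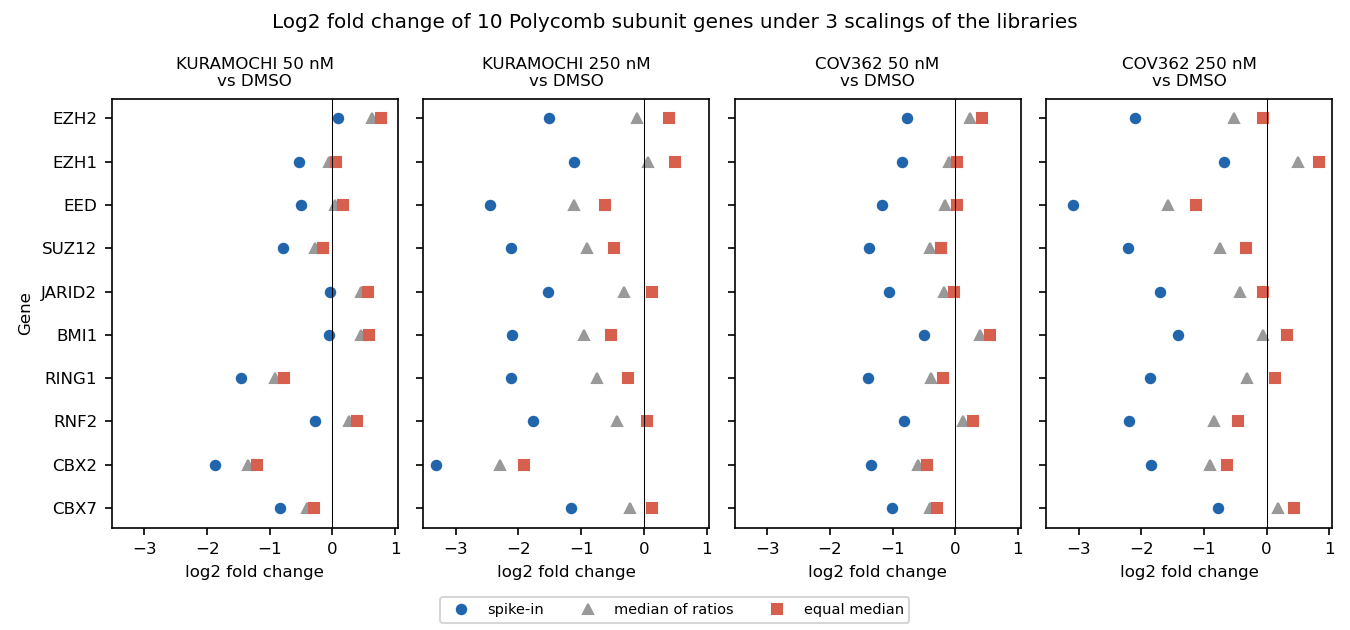
Log2 fold change of the 10 genes against DMSO in the 4 comparisons under 3 scalings of the libraries, the deposited spike-in scale (circles), median of ratios (triangles) and equal medians (squares). All circles but that of EZH2 in KURAMOCHI at 50 nM lie below 0, and EZH1 at equal medians lies above 0 in every panel (0.06, 0.49, 0.02 and 0.84), whereas CBX2 and SUZ12 stay below 0 throughout. At 50 nM these EZH1 values are smaller than their SE (0.20 in KURAMOCHI and 0.07 in COV362).

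Ratios of paralogues within a library do not depend on how that library is scaled, and in these pairs genes of like function changed unequally. EZH2 stood above EZH1 by 6.12 and 5.98 times in the Ku DMSO libraries, 10.1 and 10.0 times at 50 nM, and 7.10 and 3.98 times at 250 nM. In Cov EZH2 exceeded EZH1 by 33.1 and 36.8 times in DMSO, 44.7 and 48.0 times at 50 nM, and 15.6 and 14.5 times at 250 nM. The ratio therefore rose at 50 nM with no overlap in both lines and fell below DMSO at 250 nM without overlap in Cov, while the Ku libraries at 250 nM lay on either side of DMSO. RNF2 relative to RING1 went from 0.642 and 0.597 in Ku DMSO to 1.43 and 1.51 at 50 nM and 0.839 and 0.719 at 250 nM. RNF2 was thus the less abundant of the pair in Ku DMSO and the more abundant at 50 nM. In Cov RNF2 relative to RING1 was 0.269 and 0.306 in DMSO, 0.358 and 0.484 at 50 nM, and 0.228 and 0.141 at 250 nM, with no overlap between the groups. CBX2 relative to CBX7 fell in Ku from 4.45 and 4.97 in DMSO to 2.14 and 2.81 at 50 nM and 0.993 and 0.583 at 250 nM. In Cov CBX2 relative to CBX7 was 1.85 and 1.84 in DMSO, 2.17 and 1.29 at 50 nM, and 0.544 and 0.465 at 250 nM. CBX2 was above CBX7 in every DMSO library and below it in every 250 nM library of both lines, though nearly equal to it (0.993) in Ku replicate 1. CBX2 was below 1 FPKM in all of those 250 nM libraries, where the unknown depth limits the ratio. These ratios are given as a description and were not tested.

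**Figure D4:**
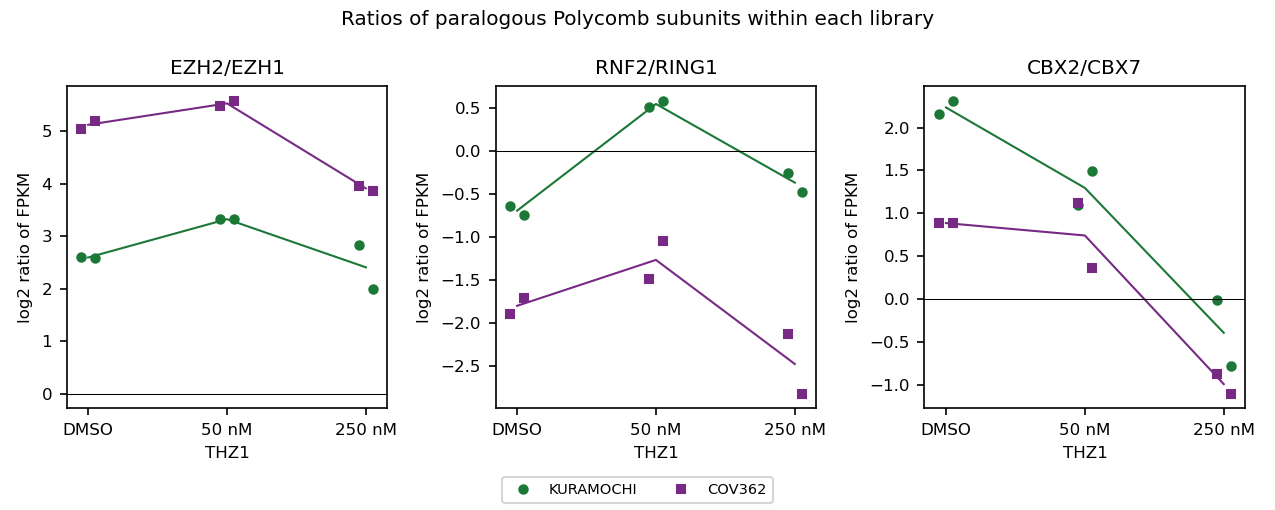
Log2 ratio of FPKM within each library for EZH2 to EZH1, RNF2 to RING1 and CBX2 to CBX7 in KURAMOCHI (circles) and COV362 (squares), with lines joining the means of 2 libraries. The EZH2 to EZH1 and RNF2 to RING1 ratios are highest at 50 nM, and the CBX2 to CBX7 ratio is below 0 at 250 nM in both lines, at only -0.01 in KURAMOCHI replicate 1.

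The wider Polycomb system was followed in 48 further genes, of which 47 have a row and 46 were active. Called lower among these were 5 in Ku at 50 nM and 41 at 250 nM, and 42 and 45 in Cov, which is 10.9%, 89.1%, 91.3% and 97.8% of the list against 11.3%, 68.6%, 70.5% and 84% of all active genes, and none was called higher, although with the libraries at equal medians the number called lower was 0, 14, 0 and 8, beside 105, 1654, 21 and 1611 of all active genes. Without Cov DMSO replicate 1 or 2 the 42 called in Cov at 50 nM became 27 and 15. Their median log2 fold changes were -0.58, -1.65, -0.99 and -1.75. The 9 other PRC2 genes lay near the median of all active genes at 250 nM, with -1.15 in Ku and -1.39 in Cov. The 25 other PRC1 genes lay lower, at -1.80 and -1.87, as did the 10 active genes of the PR-DUB deubiquitinase, which removes the mark that PRC1 writes, at -1.66 and -1.91. The demethylases KDM6A and KDM6B, which remove the PRC2 mark, were called lower in both lines at 250 nM, by -1.38 and -1.94 in Ku and by -2.47 and -1.24 in Cov.

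Among the genes of this wider list with the largest falls in Ku at 250 nM were CBX8 and CBX6, further chromodomain proteins of PRC1. CBX8 fell by -3.13 ± 0.14 at 250 nM (adjusted p = 1.01e-05) and CBX6 by -3.01 ± 0.11 (adjusted p = 7.34e-06), and both were already called lower at 50 nM, by -1.55 and -1.96. These calls of CBX8 and CBX6 were lost, as were all 5 of the list at 50 nM in Ku, with any 1 Ku library left out, with no minimum FPKM, and with only the DMSO and 50 nM libraries fitted. At the other end were PCGF5, a partner of RING1 and RNF2 in variant PRC1, and the histone-binding proteins RBBP7 and RBBP4. RBBP4 changed by -0.74 ± 0.10 (adjusted p = 0.000675) and RBBP7 by -0.65 ± 0.08 (adjusted p = 0.000294), both called lower, whereas PCGF5 at -0.56 ± 0.14 was not (adjusted p = 0.00917). In Cov the largest falls at 250 nM were those of AUTS2, E2F6 and AEBP2, with -2.73 ± 0.10 (adjusted p = 8.25e-07), -2.69 ± 0.11 (9.71e-07) and -2.65 ± 0.12 (1.22e-06). The smallest changes on the log2(FPKM + 1) scale were those of PCGF5 at -0.97 ± 0.09 (adjusted p = 2.10e-05), OGT at -0.69 ± 0.10 (0.000341) and MBD5 at -0.52 ± 0.09, which was not called (adjusted p = 0.0011). The added 1 makes the change of MBD5 look small, since its libraries read 0.994 and 1.32 FPKM in DMSO and 0.561 and 0.441 at 250 nM. AUTS2 and E2F6 are parts of variant PRC1, AEBP2 is an accessory subunit of PRC2, and OGT is a sugar transferase that associates with PR-DUB.

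**Figure D5:**
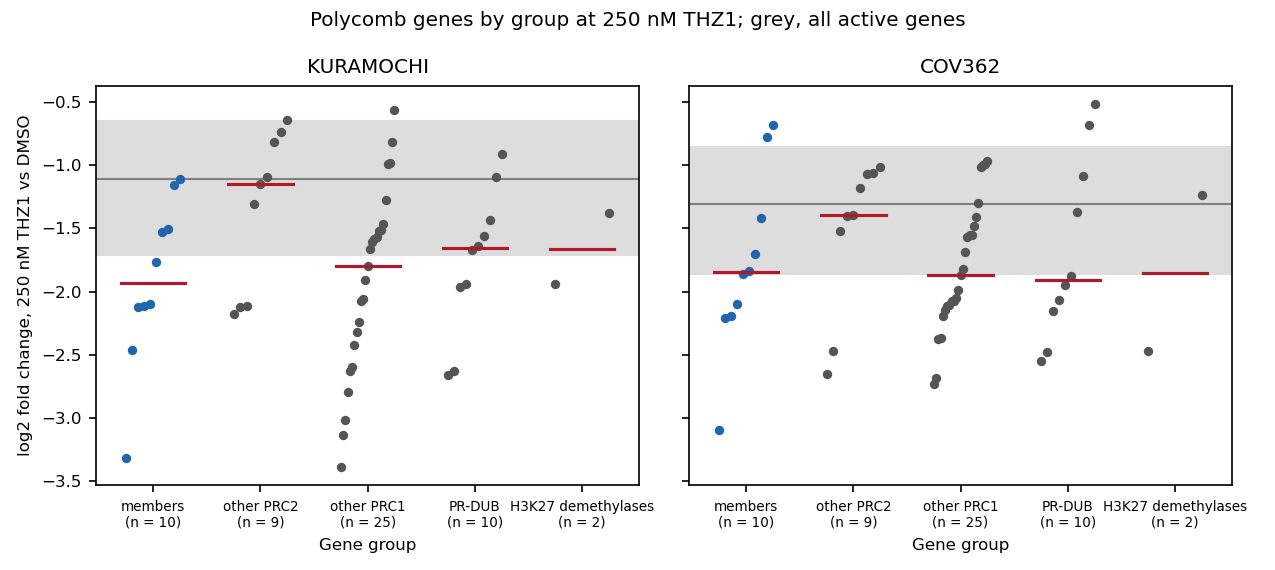
Log2 fold change at 250 nM THZ1 against DMSO for the 10 genes (blue) and for other Polycomb genes by group (dark grey), each point a gene and each red line the group median, with n active genes under each group. The grey line and band are the median and quartiles of 14251 active genes, and the medians of the 10 genes are -1.93 in KURAMOCHI and -1.85 in COV362, against -1.11 and -1.31 for all active genes.

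Genes that Polycomb classically silences were also read. Of 17 listed targets 11 were active, and none was called higher in any comparison by limma or at an unadjusted p under 0.05. Of 14251 active genes only 12 and 7 were called higher in Ku at 50 nM and 250 nM, and 11 and 15 in Cov. At an unadjusted p under 0.05, 208 and 26 were higher in Ku and 57 and 44 in Cov. With so few genes higher, a count of 0 among 11 targets says little, and relief of silencing was not tested. Changes of the targets under the other scalings are not given here. In Ku at 50 nM 8 of the 11 targets were lower at an unadjusted p under 0.05, as were 8692 of all active genes. Called lower by limma were 0 of the 11 in Ku at 50 nM, 9 at 250 nM, and 5 and 7 in Cov. These are 0%, 81.8%, 45.5% and 63.6% of the 11, against 11.3%, 68.6%, 70.5% and 84% of all active genes. The median log2 fold changes were -0.35, -1.43, -0.52 and -0.94, against -0.40, -1.11, -0.85 and -1.31. CDKN2A, the p16 locus that PRC1 represses in normal cells, was abundant, with 340 and 359 FPKM in Ku DMSO and 230 and 220 at 250 nM, a change of -0.63 ± 0.06 (adjusted p = 0.000118). In Cov CDKN2A changed by -0.77 ± 0.12 at 250 nM (adjusted p = 0.000572). GATA6 fell furthest in Cov, from 15.6 and 17.5 FPKM to 0.989 and 1.04 at 250 nM, a change of -3.12 ± 0.10 (adjusted p = 8.16e-07). In Ku DAB2IP, HOXA10, GATA6, GATA4, CDKN2B, HOXD13, HOXA9 and IGFBP3 were called lower at 250 nM, between -2.69 and -0.98, and PAX6 and CDKN1C were not, with -0.13 and -0.50. In Cov the other genes called at that dose were DAB2IP (-2.40), PAX6 (-2.08), CDKN2B (-1.70), IGFBP3 (-1.66) and HOXA10 (-0.94). CDKN1C (-0.52), HOXD13 (-0.45, adjusted p = 0.000292 but short of the fold change threshold), HOXA9 (-0.15) and GATA4 (-0.06) were not called there. HOXD10, SOX1, OLIG2, NEUROG2, MYT1 and CCND2 stayed below 1 FPKM in every library. These levels are transcripts after 6 hr and carry no measure of the histone marks.

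For 3 subunits the active genes with the most similar profile over the 12 libraries were sought, by the root mean square difference of log2(FPKM + 1) centred within each line. EZH2 was matched most closely by KPNA6, C16orf80 and UBP1, at 0.0534, 0.0596 and 0.0628 log2 units. JARID2 was matched by NCOA2, CYTH3 and IGF2BP2, at 0.0565, 0.0800 and 0.0848. For BMI1 the closest were ARRDC4, LNX2 and ARHGEF26, at 0.136, 0.140 and 0.150, so its profile had no match as close as those of the other 2. Within the 10 genes, EZH2 and RNF2 were nearest each other at 0.126, and EZH1 and CBX7 at 0.116.

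The 10 genes range from 4223 to 275974 bases in span, around a median of 31486 bases for active genes with an annotation match. Across the 10 the Spearman correlation of span with log2 fold change was 0.68 in Ku at 50 nM, 0.16 at 250 nM, 0.16 in Cov at 50 nM and -0.39 at 250 nM. Across 12757 active genes it was 0.09, 0.02, -0.06 and -0.09. The 10 values share their libraries and their DMSO controls, and the correlations are a description with no test.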

How the data were processed

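RNA was measured in 12 libraries, 2 replicates of each of 3 treatments in 2 lines, grouped by their labels. The authors added ERCC spike-ins to cell-count-normalized RNA, prepared stranded poly(A) libraries (single-end 75-base reads), aligned them to hg19 with HiSat, computed values with cuffquant and cuffnorm, normalized them to the spike-ins, and deposited FPKM, with a separate table for each line. The submitters' processing notes name HISAT, Cufflinks and Cuffnorm without versions. The strand setting of the counting is not given in the sources used here. FPKM are not counts, so edgeR, which the study names, was not used, and the depth, and with it any counting interval, is unknown.

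ERCC rows were left out and genes above 1 FPKM in at least 1 library kept. Each line was fitted separately with limma 3.58.1 in R 4.3.3 (data.table, version 1.17.8) on log2(FPKM + 1), with 3 groups of 2 libraries and a mean-variance trend. Benjamini-Hochberg adjustment ran over 14251 active genes (two-sided tests), and calls used the study's thresholds of 0.001 for the adjusted p and 0.5 for the size of the log2 fold change. The fit was also run on simulated data in which few genes changed, in both directions. Most genes fell in the libraries themselves, so that run does not describe the calls made here. The series design calls the replicates biological duplicates.

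The 10 genes, the lists and the thresholds were chosen with earlier results of these data known. Named beside the members are, of the other Polycomb genes, the 3 lowest and 3 highest at 250 nM in each line, the active classic targets, rows that can share reads, and the 3 nearest profiles of EZH2, BMI1 and JARID2. A gene that this rule would name is not reported here. Other genes were named after their values were seen. Positions come from GENCODE lifted to GRCh37 and promoters from RefSeq. Alternatives were pseudocount 0.1, minimum FPKM 10 or none, equal-median and median-of-ratios scaling, a fit restricted to the compared groups, the replicate block, no trend, adjusted p under 0.05, log2 fold change beyond 1, and each library left out. Summing BMI1 with COMMD3-BMI1 and adding 1 before taking ratios were added after seeing the data. Plots used matplotlib 3.10.9 in Python 3.11.15.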

Additional observations from a re-analysis of the deposited data

Results flagged for a closer look

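PCGF5, a PRC1 partner of RING1 and RNF2, had changes of opposite sign in the lines at 50 nM THZ1 on the spike-in scale, neither of them called. In Ku its DMSO libraries read 13.1 and 12.6 FPKM and its 50 nM libraries 18.5 and 14.8 FPKM, a log2 change of 0.34 ± 0.14 (SE) that was not called by limma (adjusted p = 0.0845). In Cov the DMSO libraries read 76.6 and 84.3 FPKM and the 50 nM libraries 65.7 and 69.3 FPKM, a change of -0.25 ± 0.09 that was not called either (adjusted p = 0.026). Every 50 nM library lay above both DMSO libraries in Ku and below both in Cov. Both changes lay above the median of all active genes, which was -0.40 in Ku and -0.85 in Cov. The difference between the lines was not tested. None of the 10 subunits had both 50 nM libraries above both DMSO libraries in Ku, although EZH2 also differed in sign, with 0.09 in Ku (not called) and -0.78 in Cov.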

How the results depend on the processing

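Counts and values run in the order Ku at 50 nM, Ku at 250 nM, Cov at 50 nM and Cov at 250 nM, and the cause of a change was not tested. Genes called lower numbered 1607, 9774, 10042 and 11971 as reported, 105, 1654, 21 and 1611 at equal medians, and 387, 2709, 110 and 2694 by median of ratios. Genes called higher numbered 12, 7, 11 and 15, against 16, 3831, 12 and 3764 at equal medians and 74, 1579, 20 and 1222 by median of ratios. Of the 10 subunits 2, 8, 8 and 10 were called lower, against 0, 2, 0 and 1 at equal medians, where 1 was called higher in Cov at 250 nM, and 1, 4, 0 and 2 by median of ratios. Other Polycomb genes called lower numbered 5, 41, 42 and 45, against 0, 14, 0 and 8, and 1, 20, 0 and 13.

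In Ku at 50 nM, genes called lower numbered 3 with no minimum FPKM, 9 with only the 2 groups fitted and 5734 at an adjusted p under 0.05, and genes called higher 0, 1 and 88, with 7 without the trend. The subunits called lower there were 0, 0 and 5 under those 3 settings, and the other Polycomb genes 0, 0 and 25. At an adjusted p under 0.05, genes called higher were 19, 32 and 26 in the remaining comparisons. A fold change beyond 1 gave 5054 genes and 22 other Polycomb genes lower in Cov at 50 nM, and 5 and 8 genes higher in Cov at 50 nM and 250 nM. In Cov a minimum of 10 FPKM gave 6 genes higher at 50 nM, and fitting only 2 groups gave 23 at 250 nM.

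Reversals of sign at equal medians, whatever their size, were, in Ku at 50 nM, BMI1 0.57, EED 0.17, EZH1 0.0572, JARID2 0.57 and RNF2 0.39, and at 250 nM CBX7 0.13, EZH1 0.49, EZH2 0.39, JARID2 0.12 and RNF2 0.0532. In Cov they were BMI1 0.56, EED 0.0285, EZH1 0.0211, EZH2 0.43 and RNF2 0.29 at 50 nM, and BMI1 0.33, CBX7 0.44, EZH1 0.84 and RING1 0.13 at 250 nM. Median of ratios reversed BMI1 0.45, EED 0.0322, JARID2 0.45 and RNF2 0.26 in Ku at 50 nM, EZH1 0.0670 at 250 nM, BMI1 0.40, EZH2 0.24 and RNF2 0.12 in Cov at 50 nM, and CBX7 0.18 and EZH1 0.50 at 250 nM. No subunit reversed under the other planned settings except with a library left out.

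With each library left out in turn, genes called lower ranged over 6 to 131, 6085 to 9044, 4314 to 9929 and 10451 to 12341, and genes called higher over 1 to 21, 5 to 23, 7 to 30 and 11 to 29. Subunits called lower ranged over 0 to 0, 7 to 8, 4 to 9 and 8 to 10, and other Polycomb genes over 0 to 0, 29 to 39, 15 to 40 and 42 to 46. In Ku at 50 nM the sign turned for BMI1 (-0.125 to 0.0291), EZH2 (-0.0155 to 0.201) and JARID2 (-0.19 to 0.10).

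Replicate numbers did not pair the samples: deviations of same-numbered libraries correlated at -0.00871 to 0.000345 in Ku and -0.0703 to 0.0282 in Cov. With the replicate block, genes called lower numbered 989, 9485, 7266 and 11202, subunits 2, 8, 7 and 9, and other Polycomb genes 2 in Ku at 50 nM, and EZH2 in Cov at 50 nM (adjusted p = 0.00128) and BMI1 in Cov at 250 nM (0.0014) were no longer called. A minimum of 10 FPKM leaves out EZH1 and CBX7. The unknown depth limits what can be said of values near or below 1 FPKM, such as those of CBX2 and CBX7 at 250 nM in both lines.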
